A study of Mus musculus with 12 samples.

Results

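The guanylate-binding proteins described here are 9 genes, Gbp2, Gbp2b, Gbp3, Gbp4, Gbp5, Gbp6, Gbp7, Gbp8 and Gbp9, taken by name from the 27457 gene rows of a single-cell RNA sequencing table of mouse tumors. All 9 were found, and all 9 passed the filter on low counts in macrophages. The tumors grew under the skin of female mice, aged 8 to 12 weeks, from injected MC38 cells, a colon carcinoma line of C57BL/6J (B6) origin. Hosts were C57BL/6J mice or F1 offspring of C57BL/6J and 1 of 7 Collaborative Cross (CC) strains, inbred lines bred from several founder strains. The F1 hosts were C57BL/6J x CC001/UncJ, x CC002/UncJ, x CC075/UncJ, x CC036/UncJ, x CC079/TauUncJ, x CC080/TauUncJ and x CC007/UncJ, so every F1 host carried a B6 genome beside the CC genome. At a tumor size of 75 to 110 mm3 each mouse received 200 µg of an antibody against PD-1 (aPD1) or of isotype control antibody, and the tumor was taken 48 h later. Viable cells were sorted as 90% CD45+ and 10% CD45- cells, marked with a hashtag antibody per tumor and run as 12 pools of 4 tumors. The study classed CC001, CC002 and CC075 as responder strains and CC036, CC079 and CC080 as non-responder strains, from tumor growth in other animals. B6 and CC007 were in no class.

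Guanylate-binding proteins are large GTPases that interferons, above all interferon gamma, induce in macrophages and many other cells. They gather on membranes of vacuoles that hold microbes and on bacteria in the cytosol, and they help to set off inflammasomes, the platforms on which caspases drive inflammation and cell death. Gbp2, Gbp2b (also called Gbp1) and Gbp5 end in a motif for lipid attachment to membranes. In tumors these genes are commonly read as a sign that cells have met interferon gamma.

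The family lies in 2 clusters of the mouse genome (GRCm38 positions of the GENCODE annotation). On the plus strand of chromosome 3 stand Gbp5, Gbp7, Gbp3, Gbp2b and Gbp2, from position 142493978 to 142638008, and on the minus strand of chromosome 5 stand Gbp8, Gbp9, Gbp4 and Gbp6, from position 105014150 to 105293698. RefSeq promoter windows of build GRCm38.p6 were on hand for the 5 genes of chromosome 3 and are printed because an interferon-response element is what the family is known for. Each line gives the 250 bases before the RefSeq start on the plus strand. Capitals mark matches to the interferon-stimulated response motif, GAAA followed by 2 bases of any kind and GAAA (TTTC, 2 bases and TTTC on the other strand), and to the interferon gamma-activated motif, TTC followed by 3 bases of any kind and GAA, which is its own reverse complement. The windows were chr3:142496684-142496933 for Gbp5, chr3:142530086-142530335 for Gbp7, chr3:142559794-142560043 for Gbp3, chr3:142594597-142594846 for Gbp2b and chr3:142620413-142620662 for Gbp2. Those of Gbp3 and Gbp2 reach into the GENCODE span of the gene, and that of Gbp5 lies wholly within the span.
Gbp5: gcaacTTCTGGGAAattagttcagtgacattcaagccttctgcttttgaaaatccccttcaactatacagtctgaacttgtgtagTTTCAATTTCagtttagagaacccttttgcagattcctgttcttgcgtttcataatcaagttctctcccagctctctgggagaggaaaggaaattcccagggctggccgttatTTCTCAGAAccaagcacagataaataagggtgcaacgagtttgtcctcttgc
Gbp7: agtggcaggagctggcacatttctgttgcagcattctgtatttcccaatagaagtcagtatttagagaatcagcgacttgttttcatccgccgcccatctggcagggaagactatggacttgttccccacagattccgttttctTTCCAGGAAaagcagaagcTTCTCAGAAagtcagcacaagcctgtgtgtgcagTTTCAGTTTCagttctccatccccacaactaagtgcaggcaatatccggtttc
Gbp3: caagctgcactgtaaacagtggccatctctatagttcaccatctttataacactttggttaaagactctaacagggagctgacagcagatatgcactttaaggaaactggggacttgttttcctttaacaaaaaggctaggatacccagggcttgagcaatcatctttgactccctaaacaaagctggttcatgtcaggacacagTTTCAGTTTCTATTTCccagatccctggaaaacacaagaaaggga
Gbp2b: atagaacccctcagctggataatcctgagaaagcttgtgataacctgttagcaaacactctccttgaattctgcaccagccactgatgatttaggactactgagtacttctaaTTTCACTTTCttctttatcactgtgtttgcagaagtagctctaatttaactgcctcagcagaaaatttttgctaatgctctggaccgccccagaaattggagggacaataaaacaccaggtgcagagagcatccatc
Gbp2: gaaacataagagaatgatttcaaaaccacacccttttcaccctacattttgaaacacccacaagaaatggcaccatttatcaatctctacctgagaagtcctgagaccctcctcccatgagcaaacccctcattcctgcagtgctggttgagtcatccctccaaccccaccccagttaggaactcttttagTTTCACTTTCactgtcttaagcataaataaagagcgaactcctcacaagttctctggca

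Searched on both strands over the full windows of 300 bases, the first motif was present in all 5 of these genes, against 3.44% of 32851 promoter windows of the annotation. In Gbp3 it matched at 2 overlapping places, and a further Gbp3 window at a later start held neither motif. The second motif was present in Gbp5 and Gbp7, at 2 places in each, against 8.30% of all windows. In Gbp2 the match to the first motif ended 50 bases before the RefSeq start, which lies after the GENCODE start of the gene at 142620602, in Gbp7 it ended 44 bases before it, and in Gbp5 it ended 156 bases before it. By the GENCODE positions the matches in Gbp5 and Gbp2 lie within the gene and not before it. All matches describe the letters of the window and no binding was measured. Gbp4, Gbp6, Gbp8 and Gbp9 are named without a window.

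Some members share sequence, which bears on how far their counts can be told apart. Of the 50-base windows of the Gbp6 transcript, 62.3% occurred also in Gbp10, a family gene outside the list, so the Gbp6 counts are uncertain. Gbp4, Gbp8 and Gbp9 have annotated starts close to each other, at positions 105139586, 105139540 and 105139539, and reads from the 5′ end, which this chemistry counts, could be shared among them. For Gbp2, Gbp2b, Gbp3, Gbp5 and Gbp7 the shared windows were 4.79% or fewer.

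The table held 93126 cells of 48 tumors (8 hosts, 2 treatments, 2 to 4 tumors of each), with 53 to 3082 cells and 88816 to 17713491 UMIs per tumor. A UMI (unique molecular identifier) marks 1 captured transcript. Of the cell barcodes, 4990 occurred in more than 1 library. The smallest tumor, the CC007 aPD1 tumor of pool 6 with 53 cells, stood apart in depth. No hashtag was used for both treatments, so hashtag and treatment cannot be told apart. Reads of all hosts were aligned to the B6 reference genome. Clusters carry the authors' numbers and were named from marker lists. Clusters 2, 4, 5, 9, 15, 17, 19, 21, 26 and 27 were monocyte/macrophage-like (68059 cells, called macrophages), and in them Lyz2 was at 6092 CPM and C1qa at 1839 CPM, against 1.31 CPM for the T cell gene Cd3e. Clusters 1, 3, 7, 8, 10, 12 and 13 were T/NK-like (10195 cells). Cluster 24 (1614 cells), led by the natural killer cell genes Ncr1 and Klra8, met no marker list and stayed unnamed, so the T/NK values leave it out. CPM is UMIs of a gene per 1000000 UMIs of the same cells, and since UMIs count 5′ ends they were not divided by transcript length.

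Macrophages held most of the Gbp transcripts. The 9 genes together had 241069 UMIs, 81.0% of them in macrophages and 5.72% in T/NK cells. By gene the macrophage share ran from 76.9% for Gbp6 to 88.2% for Gbp2b. Macrophages were also 68059 of the 93126 cells, so a high share does not by itself show a high level. As a level, the 9 genes together were at 649 CPM in macrophages and 582 CPM over all cells. Gbp6 was at 37.0 CPM in macrophages and 34.9 CPM over all cells, and Gbp2b at 18.3 CPM and 15.1 CPM. Gbp2, which attacks vacuoles and bacteria, was the most abundant member in macrophages, at 251 CPM. The next were Gbp7 at 77.5 CPM, Gbp5 at 72.1 CPM, Gbp4 at 59.2 CPM and Gbp3 at 56.7 CPM, and Gbp2b was the lowest at 18.3 CPM.

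Members differed in where else they stood high. Granulocytic cells had 642 CPM of Gbp2 and 372 CPM of Gbp5, which is known for promoting the NLRP3 inflammasome, above every other named class in both genes. They were also the highest named class in Gbp7 (148 CPM), Gbp2b (40.9 CPM) and Gbp9 (35.6 CPM). These are 529 cells, and 20 to 361 UMIs stand behind the 5 values. Gbp2b, with 23 UMIs, ran from 0 through a median of 0 to 423 CPM over the 7 tumors with at least 20 such cells. Its rank was thus not that of most of these tumors. Migratory dendritic cells followed for Gbp5, at 172 CPM. T/NK cells showed another order of the family. Within them Gbp7 at 96.3 CPM, Gbp4 at 75.6 CPM and Gbp6 at 71.7 CPM were the most abundant, and Gbp2 was at 53.8 CPM. T/NK cells exceeded macrophages in Gbp4, Gbp6 and Gbp7, were level with them in Gbp3 and had less of the other 5 members. Dendritic cells of the cDC1 class were low throughout, from 1.74 CPM for Gbp6 to 47.1 CPM for Gbp2. The clusters were made from the same counts, so these levels are a description without a test.

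**Figure D1:**
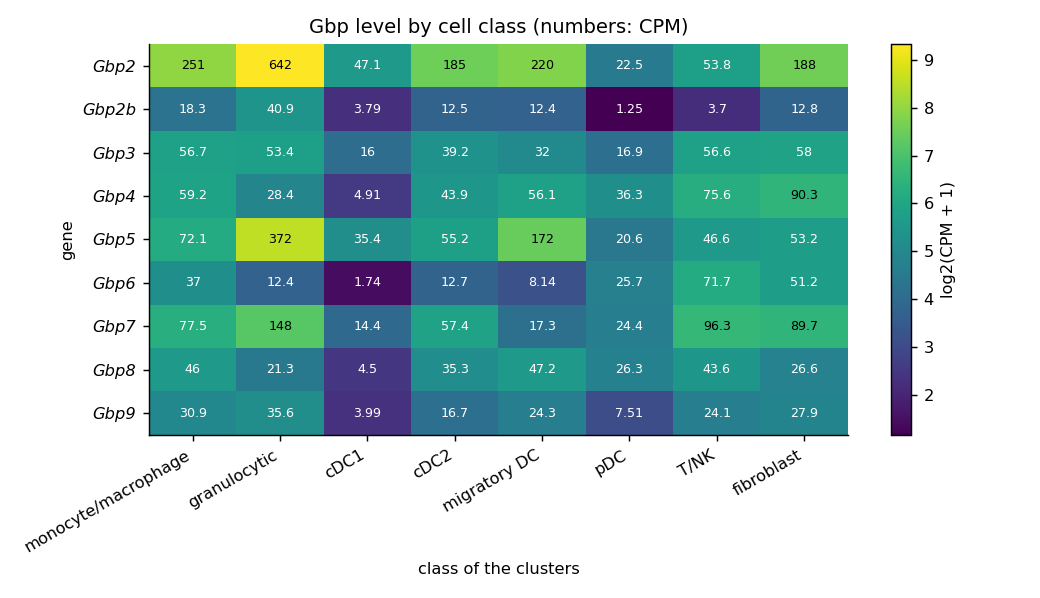
Level of each Gbp gene (rows) in each named cell class (columns), as CPM over all cells of the class; the color gives log2(CPM + 1). Gbp2 was highest in granulocytic cells (642) and macrophages (251), and Gbp7, the most abundant member within T/NK cells (96.3), was at 148 in granulocytic cells.

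Within macrophages the level followed the cluster. Cluster 21, led by Ifit3, Ifit2 and other interferon-induced genes, had the highest level of Gbp3 (129 CPM), Gbp4 (110 CPM), Gbp5 (228 CPM), Gbp6 (94.3 CPM), Gbp7 (177 CPM), Gbp8 (73.7 CPM) and Gbp9 (71.8 CPM) among the macrophage clusters. Gbp2b was also highest there (23.8 CPM), just above cluster 5 (22.1 CPM). Gbp2 was highest in cluster 4, led by Adgre4 and Ace, at 550 CPM over all its cells, where tumors ran from 29.0 through a median of 527 to 1528 CPM (44 tumors with at least 20 such cells), and cluster 21 was next at 468 CPM. Cluster 27, led by Gpnmb, Arg1 and Mmp12, was low in the family: Gbp2 was at 81.2 CPM, Gbp5 at 10.6 CPM and Gbp2b at 3.61 CPM. It was not the lowest in each of these genes. Cluster 15 was lower in Gbp2 (62.4 CPM) and Gbp2b (0.895 CPM) and higher in Gbp5 (13.1 CPM), and cluster 9 was lower in Gbp2 only (72.2 CPM). The largest macrophage cluster, cluster 2 with 18964 cells, lay between clusters 21 and 27, with Gbp2 at 306 CPM.

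Which hosts have high or low Gbp levels in their macrophages was asked first, strain by strain, on UMI counts summed over the macrophages of each tumor. A summed level cannot tell more transcripts per cell from more cells that use the gene. All 9 members differed among the 8 hosts (edgeR quasi-likelihood F-test, both treatments averaged, Benjamini-Hochberg adjusted over 13010 genes), where 48.3% of all genes tested did so. The adjusted p ran from 1.35e-10 for Gbp2b to 0.00295 for Gbp9, and all 9 calls held with each of the 48 tumors left out in turn. With the pool as a block the call of Gbp9 was lost (adjusted p = 0.178) and the other 8 held.

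Gbp2b had the clearest host pattern of the family. Its level in CC002 macrophages was 47.8, 63.6 and 131 CPM in the isotype tumors and 97.2, 117 and 121 CPM in the aPD1 tumors. In CC075 it was 8.75, 10.8 and 29.8 CPM in isotype tumors and 25.9, 35.1 and 39.5 CPM in aPD1 tumors, and in B6 it was 3.86, 6.95 and 7.07 CPM and 7.80, 9.39 and 18.8 CPM. Every CC002 tumor was thus above every tumor of the other hosts, none of which passed 39.5 CPM. Against B6, CC002 was higher by 3.43 ± 0.51 on the log2 scale (SE, n = 6 tumors in each host; adjusted p = 1.79e-05), and CC075 by 1.44 ± 0.505 (adjusted p = 0.104). With the pool as a block the CC002 difference was 1.56 and did not pass (adjusted p = 1). Gbp2b was the only member that any CC F1 host had above B6 by this test.

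Gbp2 showed the opposite end of the range. B6 tumors had 300 to 719 CPM with a median of 446 (n = 6), and CC079 tumors had 54.2 to 214 CPM with a median of 113 (n = 6). The B6 and CC079 tumors did not overlap, and the difference was -2.04 ± 0.35 (log2, SE; adjusted p = 8.53e-05). CC001 tumors spread from 70.3 through a median of 174 to 552 CPM (n = 8), and CC080 tumors from 99.0 through 168 to 482 CPM (n = 6). These ranges reached into that of B6, and both hosts were lower than B6 on average, by -1.28 ± 0.32 (adjusted p = 0.00606) and -1.26 ± 0.35 (adjusted p = 0.028). With the pool as a block these 3 differences were -1.55, -0.88 and -0.20, and none passed (adjusted p = 1 for each).

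In each of the other 7 members CC079 had the lowest median of the 8 hosts, and CC075 or CC002 had the highest except in Gbp8, where B6 (median 66.5 CPM) was just above CC002. Gbp5 ran from 81.4 through 158 to 188 CPM in CC075 and from 25.0 through 35.1 to 55.9 CPM in CC079. Gbp7, which helps to assemble the oxidase that makes reactive oxygen, ran from 82.3 through 141 to 154 CPM in CC075 and from 40.5 through 50.4 to 80.4 CPM in CC079. Gbp4 ran from 53.9 through 103 to 165 CPM in CC002 and from 16.9 through 25.8 to 52.6 CPM in CC079. In none of these 3 genes did the 6 tumors of the top host overlap the 6 tumors of CC079. The same held for Gbp3, from 55.3 to 108 CPM in CC075 against 26.4 to 52.1 CPM in CC079, and for Gbp6, from 37.6 to 68.7 CPM against 10.8 to 33.5 CPM. Gbp8 ran from 37.2 through 62.8 to 102 CPM in CC002 and from 17.2 through 23.5 to 34.4 CPM in CC079. Gbp9 overlapped slightly, from 32.7 to 57.5 CPM in CC075 and from 16.9 to 33.0 CPM in CC079. These hosts were picked as the ends of the order, so the contrasts between them are given without a test. How many of all genes separated hosts as fully was not counted, for these members or for Gbp2 and Gbp2b. Of all genes tested 48.3% differed among the 8 hosts.

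Summed over the 9 members the median level was 1030 CPM in CC075, 959 in CC002, 930 in B6, 864 in CC007, 552 in CC036, 464 in CC001, 433 in CC080 and 334 in CC079. Each host overlapped the next one in this order: CC007 ran from 608 to 1053 CPM and CC036 from 249 to 863 CPM, for example. The responder strains were therefore not together, since CC001 stood among the non-responder strains and had both low tumors (237 CPM) and high ones (1245 CPM).

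**Figure D2:**
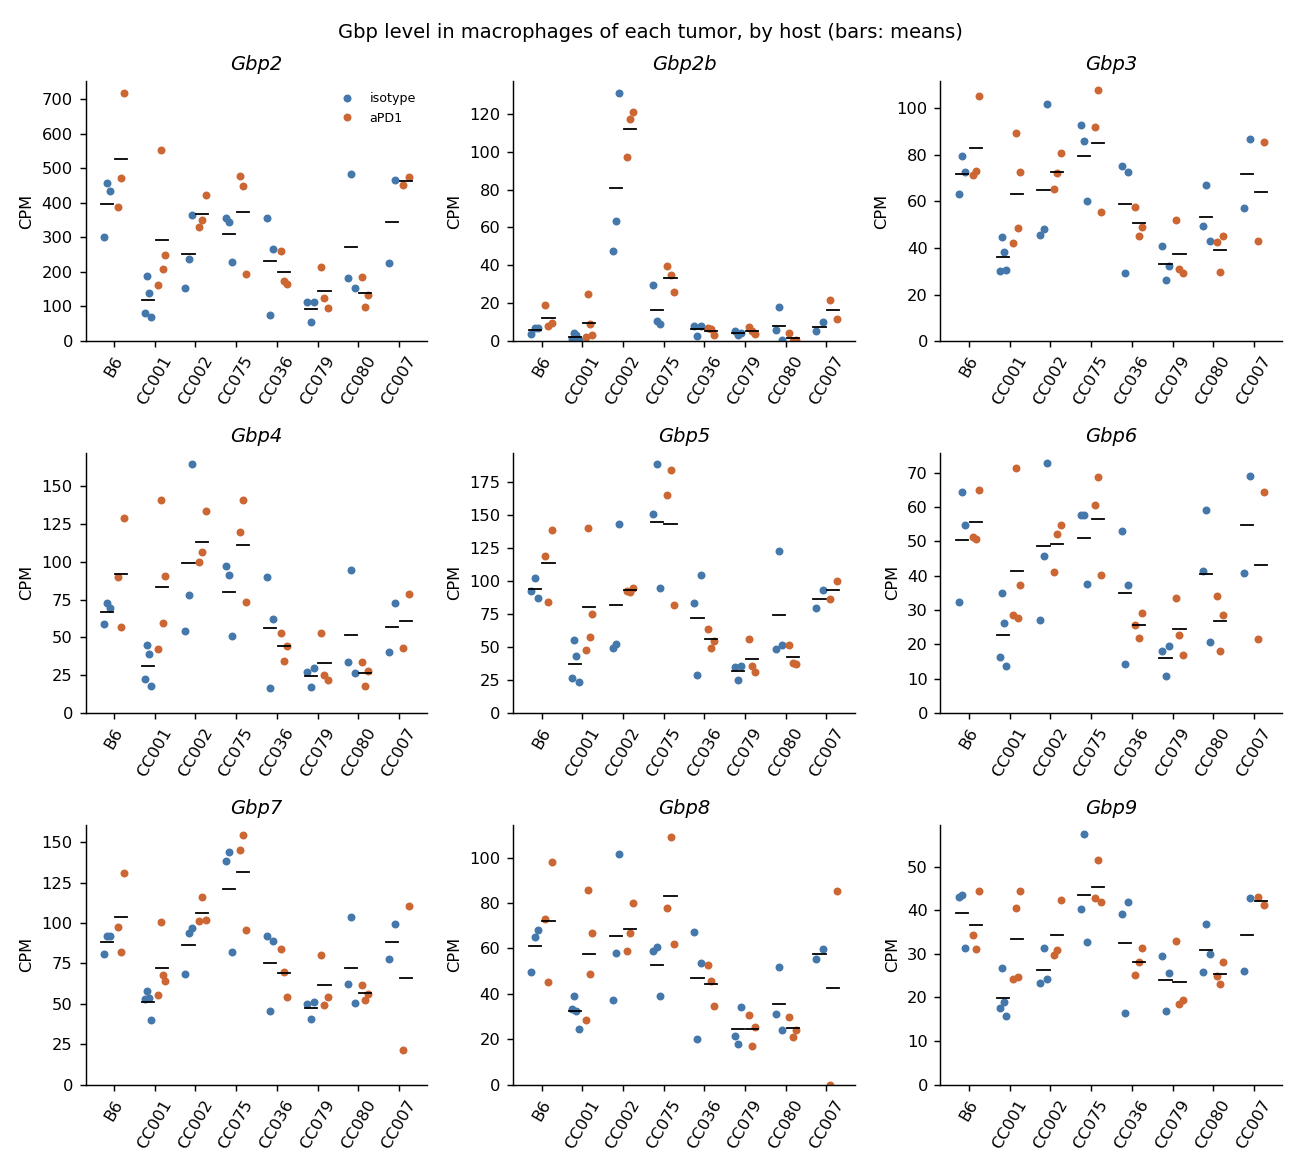
CPM of each Gbp gene in the macrophages of each tumor, by host; each point is 1 tumor (blue isotype, orange aPD1) and the bars are means of host and treatment. Gbp2b was high in CC002 (47.8 to 131 CPM), and CC079 tumors lay low in the other 8 genes.

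Measured against B6, 20 of the 63 pairs of member and CC F1 host passed the test, 1 higher and 19 lower. CC079 was lower in 8 of 9 members, all but Gbp2b, where 24.8% of all genes tested differed from B6. CC001 was lower in 6 of 9 (15.5% of all genes), namely Gbp2, Gbp3, Gbp5, Gbp6, Gbp7 and Gbp9. With each of the 48 tumors left out in turn, Gbp6 passed in 28 fits and Gbp9 in 14, and the other 4 in 46 or more. CC080 was lower in Gbp2, Gbp3 and Gbp8 (3 of 9; 3.98% of all genes), and CC036 in Gbp2 and Gbp6 (2 of 9; 5.94%), where Gbp6 passed in 19 of the 48 fits. CC002 differed in Gbp2b alone (1 of 9; 4.93%). CC075 and CC007 differed in 0 of 9 members, at 4.17% and 0.930% of all genes. At an unadjusted p under 0.05 CC075 had 1 member, Gbp2b, and CC007 had 0, beside 2274 and 1018 of the 13010 genes. The B6 tumors stood in pools 6, 7 and 8, which they shared with CC007 and CC036 only, so the other hosts met B6 in no pool and were linked to it only through other hosts with shared pools, starting from CC036. With the pool as a block 0 of the 63 pairs passed. The log2 differences of the 20 called pairs did not all shrink under it, since that of Gbp6 in CC079 was -1.54 beside -1.47 without the block. Those of Gbp8 in CC079 (-1.33 beside -1.49) and of Gbp2 in CC036 (-0.94 beside -1.17) shrank in part. Others came close to 0 or turned, with Gbp3 in CC001 at -0.11 beside -0.69 and Gbp3 in CC080 at 0.12 beside -0.79. Without the B6 aPD1 tumor of pool 8, which was highest in Gbp2 (719 CPM), 11 pairs passed.

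T/NK cells were compared among hosts in the same way. There 5 of the 9 members differed among the hosts (19.3% of 9479 genes tested), in 47 tumors with at least 20 such cells: Gbp3 (adjusted p = 6.48e-08), Gbp2b (7.46e-07), Gbp5 (6.4e-06), Gbp2 (0.000202) and Gbp7 (0.00174). Gbp8 (0.0654), Gbp9 (0.0867), Gbp4 (0.169) and Gbp6 (0.655) did not pass. These 5 calls held with each tumor left out in turn. Gbp8 passed in 6 and Gbp9 in 2 of the 47 fits so made.

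Gbp2b was also counted in CC002 T/NK cells. The isotype tumors had 26.0, 6.61 and 22.9 CPM and the aPD1 tumors had 24.5, 14.8 and 19.99 CPM, from 89 UMIs in all. B6 tumors had 0 UMIs of Gbp2b among 4249123, which allows up to 0.706 CPM, so the pooled CC002 level of 17.3 CPM was at least 24.5-fold higher (bound from 3 counts over the B6 tumors together; counting error only). In T/NK cells of the remaining hosts no tumor passed 6.84 CPM, the level of a CC079 aPD1 tumor with 1 UMI. CC002 thus stood above the other hosts in both cell types, except that its lowest T/NK value (6.61 CPM) was just under that CC079 tumor. Free RNA of macrophages can give such UMIs. The 9 macrophage markers were in CC002 T/NK cells at 4.91% to 7.58% of their level in CC002 macrophages, and Gbp2b was at 17.7% of its level (97.8 CPM). In the other hosts Gbp2b in T/NK cells was at 0% (B6) to 66.6% (CC079) of its macrophage level, on 0 to 8 UMIs per host. The part of free RNA in the CC002 level was not tested.

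Gbp3 and Gbp5 were high in CC075 T/NK cells. Gbp3 ran from 81.0 through 122 to 146 CPM in CC075 (n = 6) and from 7.54 through 38.2 to 52.1 CPM in B6 (n = 6). Gbp5 ran from 50.8 through 93.8 to 134 CPM in CC075 and from 14.9 through 32.6 to 50.4 CPM in B6. The CC075 and B6 tumors did not overlap in either gene. How many of all genes separated these hosts as fully was not counted. For Gbp2 and Gbp7 the order turned against that in macrophages, since CC079 was at the top in T/NK cells: Gbp2 had a median of 104 CPM in CC079 (59.2 to 162), 77.0 CPM in B6 (49.5 to 219) and 27.6 CPM in CC001 (13.5 to 53.3). Gbp7 had a median of 135 CPM in CC079 (115 to 198) and 72.4 CPM in B6 (63.1 to 91.3). The CC079 aPD1 tumors held 27, 56 and 89 T/NK cells. Macrophage markers in T/NK cells were at 8.03% to 11.6% of their macrophage level in CC079 and at 3.55% to 7.73% in B6, and their part in this order was not tested. The difference between the cell types in host pattern was not tested either.

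**Figure D3:**
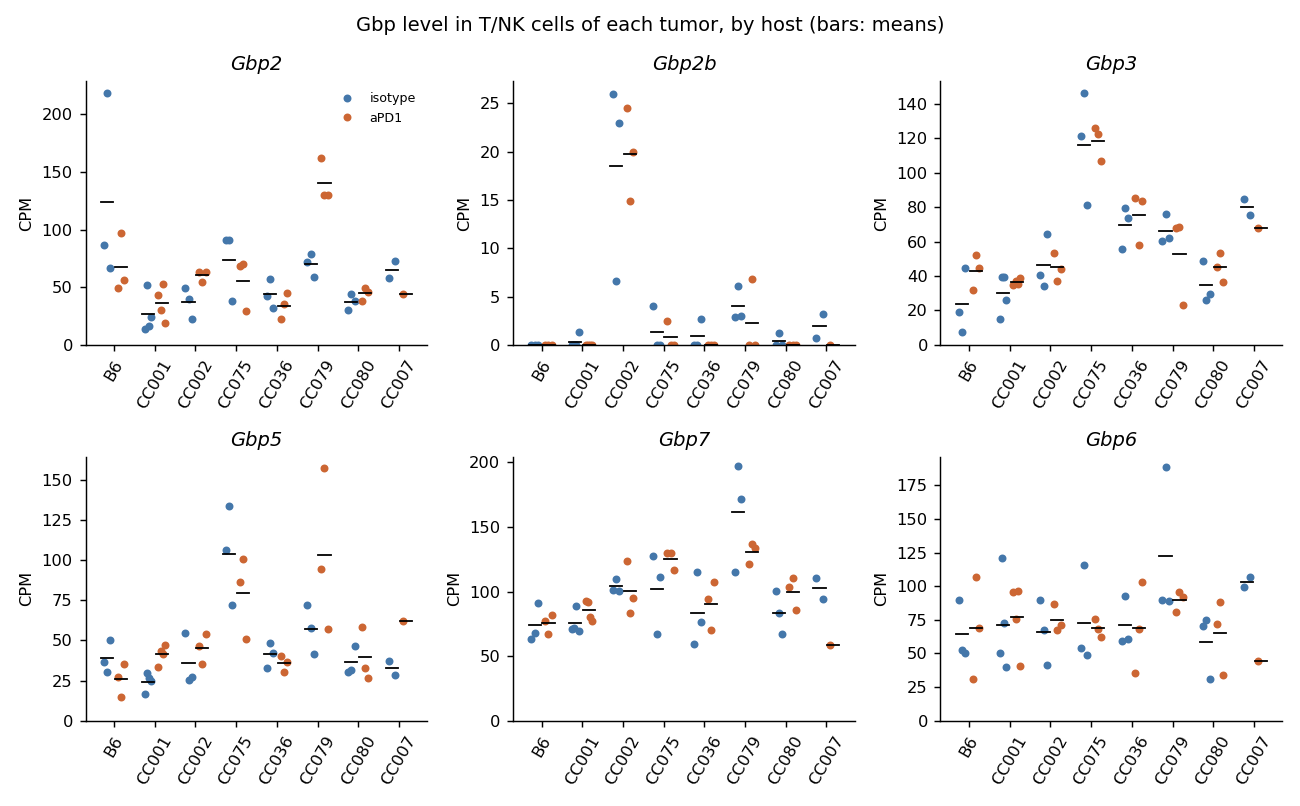
CPM of 6 Gbp genes in the T/NK cells of each tumor, by host; each point is 1 tumor (blue isotype, orange aPD1) and the bars are means. Gbp2b was seen mainly in CC002 (6.61 to 26.0 CPM), Gbp3 was highest in CC075 (81.0 to 146 CPM), and the hosts overlapped in Gbp6.

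Responder and non-responder strains were then compared in macrophages. With both treatments averaged, 7 of 9 members were higher in responder strains (20 tumors against 18), where 6.56% of 11873 genes tested differed in either direction. The median log2 difference over the 9 members was 0.67, and that over all genes tested was -0.004. Gbp2b ran from 0.380 through a median of 25.3 to 131 CPM in responder tumors and from 0.185 through 4.87 to 17.8 CPM in non-responder tumors. The groups overlapped: all CC001 tumors but 1 and 2 of the 3 isotype tumors of CC075 were within the non-responder range, and the difference was 2.79 ± 0.54 (log2, SE; adjusted p = 0.000912).

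Gbp4 ran from 17.5 through 84.3 to 165 CPM in responder tumors and from 16.4 through 31.5 to 94.4 CPM in non-responder tumors (1.09 ± 0.245, adjusted p = 0.00409). Gbp8 ran from 24.7 through 58.8 to 109 CPM and from 17.2 through 30.3 to 67.0 CPM (0.82 ± 0.18, adjusted p = 0.0037). Both pairs of ranges overlapped, with the upper part of the range held by responder tumors. Gbp5, Gbp6, Gbp7 and Gbp3 were higher by 0.85, 0.67, 0.56 and 0.55 (adjusted p = 0.0263, 0.0396, 0.0205 and 0.032). Gbp2, at 0.64 ± 0.24 (adjusted p = 0.107), and Gbp9, at 0.33 ± 0.14 (adjusted p = 0.184), did not pass. With each tumor left out in turn, Gbp2b, Gbp4, Gbp7 and Gbp8 passed in all 38 fits, Gbp5 in 37, Gbp3 in 30 and Gbp6 in 19.

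The classes were also compared within each treatment. Among the aPD1 tumors (10 against 9) 8 of 9 members were higher in responder strains, all but Gbp9 (adjusted p = 0.0568), with 6.44% of all genes called. Gbp4 was at 42.5 to 141 CPM with a median of 103 in responder aPD1 tumors and at 18.0 to 53.1 CPM with a median of 33.6 in non-responder aPD1 tumors, a difference of 1.63 ± 0.345 (adjusted p = 0.00306). Gbp2b differed by 3.56 ± 0.76 (adjusted p = 0.00321) and Gbp8 by 1.21 ± 0.25 (adjusted p = 0.00281). Only the lower end of the responder range met the non-responder range in Gbp4. Among the isotype tumors (10 against 9) 0 of 9 members passed by edgeR (0.278% of all genes called). Gbp2b alone of the members was under 0.05 unadjusted there, as were 797 of the 11873 genes. Its adjusted p was 0.519, and DESeq2 called 0 of 9 as well. The 9 estimates in isotype tumors were all above 0, from 0.04 for Gbp9 to 2.02 for Gbp2b, and the difference between the treatments was tested itself, as given with the aPD1 effect.

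**Figure D4:**
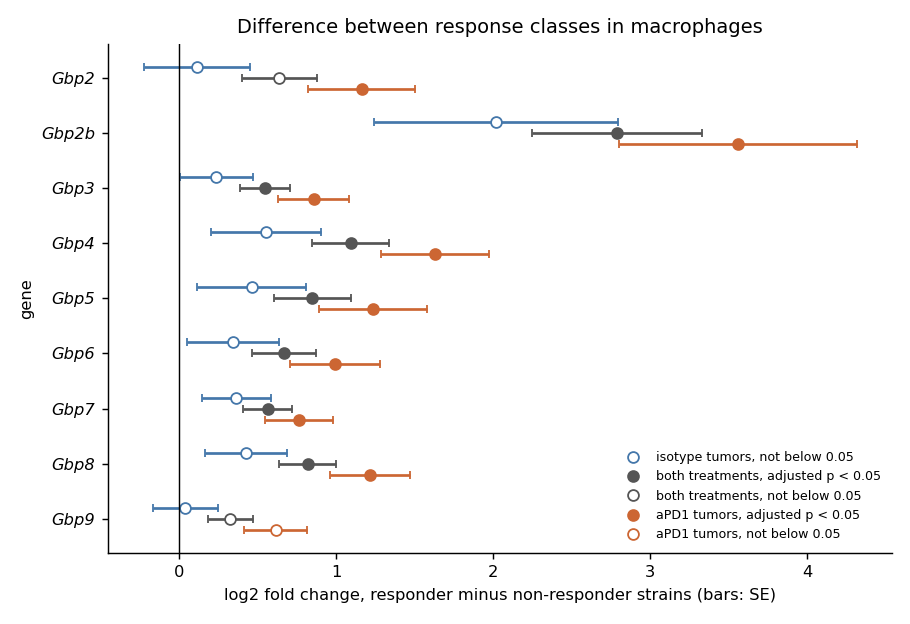
Log2 fold change of each Gbp gene in macrophages, responder minus non-responder strains, in isotype tumors (blue), both treatments (grey) and aPD1 tumors (orange); bars are standard errors and filled points have an adjusted p under 0.05. In aPD1 tumors 8 of 9 points are filled, in isotype tumors 0 of 9.

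These class differences rest on 3 strains of each class. Over both treatments, with counts summed per strain, so that the strain was the replicate, 0 of 9 members passed, at log2 differences of 0.43 to 3.20 and adjusted p of 0.474 or more. The aPD1 tumors alone were not summed so. Without CC002, CC075 or CC079 the count over both treatments was 3, 3 and 2, and in pools 1 to 5 and pools 8 to 12 alone it was 2 and 0. Leaving out the CC075 isotype tumor of pool 10 left 4 members. In the aPD1 tumors the count was 1 in pools 1 to 5, 0 in pools 8 to 12, 5 without CC002, 3 without CC075, CC079 or CC080 and 5 without the CC080 tumors of the shared identifier. It was 4 without the CC075 tumor of pool 10, and 5 without the CC075 tumor of pool 9, the CC079 tumor of pool 2 or 5 or the CC080 tumor of pool 4. In the isotype tumors Gbp2b passed once CC001 was left out. T/NK markers summed over their list of 9 genes were at 4.72 to 54.5 CPM (median 9.55) in the macrophages of responder aPD1 tumors and at 2.09 to 8.15 CPM (median 5.23) in those of non-responder aPD1 tumors, and no single T/NK marker passed 2.13 CPM over all macrophages. T/NK cells were 5.49% to 28.5% of the cells of responder aPD1 tumors and 1.60% to 10.4% of those of non-responder aPD1 tumors. The summed cDC1 markers in macrophages were at 239 to 445 CPM (median 357) and 154 to 278 CPM (median 225) in these groups, with Irf8, itself an interferon gamma signalling gene, at 156 CPM and Xcr1 at 0.767 CPM over all macrophages. The part of these cells in the result was not tested. Cluster 2 held 18.9% to 45.4% of the macrophages of responder aPD1 tumors and 18.3% to 40.2% of those of non-responder aPD1 tumors, and within this cluster alone the 9 differences in aPD1 tumors ran from 0.63 to 3.39.

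In T/NK cells 0 of the 8 members tested differed between the classes (both treatments; 3.20% of 6727 genes called). Gbp2b did not reach the count filter of that fit. The 8 log2 differences ran from -0.19 to 0.18, and by edgeR 0 of them had an unadjusted p under 0.05. DESeq2 called 0 as well. With no filter on low counts Gbp2b was tested and passed, the 1 member so called. Of its UMIs in T/NK cells 89 were in CC002, with 8 in CC075 and 1 in CC001. The non-responder hosts CC036, CC079 and CC080 had 1, 5 and 2. The share of all genes called in that fit is not given here.

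What aPD1 did to the family within 48 h was tested in the macrophages of each class, with the host in the model. In responder strains all 9 members had higher estimates in aPD1 than in isotype tumors, with a median log2 difference of 0.565 against 0.01 over all genes, but 0 of 9 passed edgeR's test, as did 0% of all genes, and DESeq2 also called 0 of 9. The adjusted p ran from 0.245 for Gbp2b (1.30 ± 0.38) to 0.457 for Gbp6 (0.47 ± 0.23). All 9 members were under 0.05 unadjusted, as were 1409 of the 13010 genes. In cluster 2 alone 5 members were higher in aPD1 tumors of responder strains, Gbp4 (1.06 ± 0.26, adjusted p = 0.025), Gbp8 (0.84 ± 0.205, 0.0257), Gbp7 (0.65 ± 0.17, 0.0336), Gbp5 (0.93 ± 0.25, 0.0433) and Gbp2 (0.98 ± 0.27, 0.0458), where 1.86% of 11201 genes were called. The call of an aPD1 effect thus depended on which macrophages were summed. The difference of the aPD1 effect between the classes gave 0 of 9 members in cluster 2 by edgeR, and 0 of 11201 genes. Its adjusted p ran from 0.161 for Gbp4 to 0.385 for Gbp6. The 5 calls in cluster 2 were not refitted with the pool as a block or with a tumor left out.

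Among the responder strains CC001 had the highest median estimate of the 9 members, 0.925, though none passed. Its Gbp2 level in pools 1, 2, 4 and 12 was 81.5, 187, 139 and 70.3 CPM in the isotype tumors and 161, 552, 209 and 249 CPM in the aPD1 tumors of the same pools. Each aPD1 tumor was above the isotype tumor it shared a pool with, and the ranges met. The estimate was 1.37 ± 0.43 (adjusted p = 0.291), and Gbp4 in CC001 had 1.499 ± 0.43 (adjusted p = 0.235). In CC002 the 9 estimates ran from 0.26 to 0.68 and in CC075 from 0.06 to 1.16. Over the 10 pairs of isotype and aPD1 tumors of 1 responder host and pool (2 of the pairs in pool 12), the summed level of the 9 members was higher in the aPD1 tumor in 9, and single members were higher in 7 (Gbp3 and Gbp5) to 10 (Gbp7). Over the 9 such pairs of non-responder hosts the summed level was higher in 3, and single members were higher in 3 (Gbp8 and Gbp9) to 5 (Gbp7). These counts of pairs were not tested and were not made over all genes. The members moved together, so their counts are not separate evidence.

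In no single host did a member pass the aPD1 test by edgeR. The share of all genes called was 0% in B6, 0.0154% in CC001, 0% in CC002, 0.477% in CC075, 0% in CC036, 0% in CC079, 0% in CC080 and 0.00769% in CC007. At an unadjusted p under 0.05 the 9 members of CC001 and 2 of CC080, Gbp2 and Gbp2b, were counted, beside 952 and 363 of the 13010 genes. In CC080 the 9 estimates were below 0. Its Gbp2 level in pools 3, 4 and 11 was 182, 482 and 153 CPM in isotype tumors and 184, 99.0 and 132 CPM in aPD1 tumors. The direction rests on the pair of pool 4, since the pairs of pools 3 and 11 differed by 0.01 and -0.21 on the log2 scale and that of pool 4 by -2.27. The estimate was -1.01 ± 0.49 (adjusted p = 1), and 1 animal identifier stands on both the isotype tumor of pool 3 and the aPD1 tumor of pool 4.

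In non-responder strains the 9 estimates of the aPD1 effect lay between -0.615 and -0.02, with 0 of 9 called by edgeR (0% of all genes) and 0 by DESeq2, and 0 members and 185 genes were under 0.05 unadjusted. The strains of this class were not alike in sign: the 9 estimates were above 0 in CC079, with a median of 0.40, against a median of 0.405 in CC002 of the responder class, and below 0 in CC080, and 8 of 9 were below 0 in CC036. The difference of the aPD1 effect between the classes was tested itself and also gave 0 of 9 by edgeR (0% of all genes) and 0 of 9 by DESeq2. It was largest for Gbp2b, at 1.92 ± 0.615 (adjusted p = 0.417). At an unadjusted p under 0.05 were 7 members, without Gbp6 and Gbp7, and 1268 of the 13010 genes. The larger class difference in aPD1 than in isotype tumors was therefore not shown to be a difference of the aPD1 effect. In T/NK cells of responder strains 0 of 9 members passed by edgeR (0% of all genes, adjusted p of 1 for each) or by DESeq2, and 0 had an unadjusted p under 0.05.

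The members moved together from tumor to tumor in macrophages. Over 48 tumors the rank correlation of each member with the summed level of the other 8 was 0.77 for Gbp2b and Gbp9 and up to 0.94 for Gbp3, whereas over 47 tumors in T/NK cells it was 0.16 for Gbp8 to 0.55 for Gbp7. The points share library and depth, T/NK sums are shallower, and the values are a description. Among 13001 other genes tested in macrophages, those most like the summed family level over the 48 tumors included Batf2 (rank correlation 0.94), Cnn3 (0.94), Fgl2 (0.94) and Slamf8 (0.93). The next were Tap2 (0.93), Tapbpl (0.93), the GTPase Irgm1 (0.92), Tap1 (0.92) and Tapbp (0.92), of which Tap1, Tap2 and Tapbp load peptides on class I molecules. The median over all these genes was -0.09.

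Ifng, the gene of interferon gamma, was at 0.555 CPM in macrophages, so its level over a whole tumor is nearly all from other cells. That level ran from 0 through a median of 36.5 to 698 CPM. The macrophage level of all 9 members correlated with it over 48 tumors, on log2(CPM + 1) scales (9 relations; two-sided permutation tests with 100000 resamples, adjusted over the 9). These tests treat the tumors as independent, although they share 8 hosts and 12 pools, so the p-values are too small. Pearson r was highest for Gbp7 at 0.80 (rho 0.80, adjusted p = 1e-05 for both, the smallest that these permutations can give) and next for Gbp8 at 0.78 (rho 0.84, the same p). It was lowest for Gbp9, at 0.45 (rho 0.46; permutation p adjusted 0.00152 and 0.00135), and for Gbp2b, at 0.53 (rho 0.62; 0.000157 and 2.25e-05). The other 5 members had r of 0.65 to 0.77 and rho of 0.72 to 0.79. Other genes were not correlated with Ifng, so the share of all genes with a relation as strong is not known.

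The relation held without the 2 tumors farthest from the median of Ifng, both at its low end. Without the CC007 aPD1 tumor of pool 6, which had 0 Ifng UMIs (a floor of 33.8 CPM at its depth), and the CC079 aPD1 tumor of pool 2 at 0.741 CPM, r was 0.51 for Gbp9 and up to 0.82 for Gbp8. The highest tumor, the CC002 isotype tumor of pool 12 (698 CPM, 248 cells), was not left out. Within pools 1 to 5 (20 tumors) r was 0.64 to 0.88 over the 9 members, and within pools 8 to 12 (20 tumors) it was 0.65 to 0.74 for the members other than Gbp9 and 0.27 for Gbp9. With values centered on the mean of each strain it was 0.40 to 0.77 for those members and 0.19 for Gbp9. Gbp9 had the lowest r of the 9 in each of these settings. With Ifng scaled to the UMIs of T/NK cells only, r was 0.54 to 0.79 over 47 tumors.

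**Figure D5:**
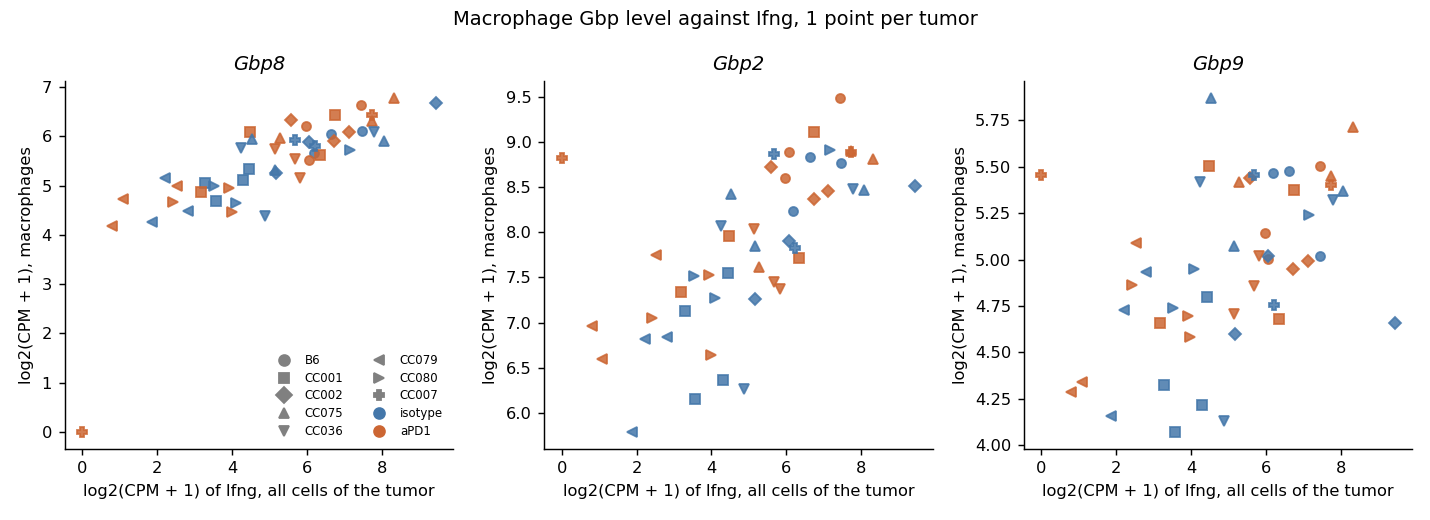
Macrophage level of Gbp8, Gbp2 and Gbp9 against the Ifng level of all cells of the tumor, both as log2(CPM + 1); each of the 48 points is a tumor, with the shape giving the host and the color the treatment. Gbp8 (r 0.78) and Gbp2 (r 0.65) rose with Ifng more tightly than Gbp9 (r 0.45), and the CC007 tumor at 0 Ifng is the shallowest one.

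Other genes of the interferon gamma pathway were counted in the same fits, in which 6.56% of all genes tested differed between the classes over both treatments and 6.44% in the aPD1 tumors. With counts summed per strain 0 of the 9 Gbp genes passed over both treatments, and the genes of these lists were not tested so. The immunity-related GTPases, a second GTPase family induced by interferon gamma, had 8 of 9 genes tested, and 3 of these were higher in responder strains over both treatments and 7 in the aPD1 tumors, led by Iigp1 at 1.74 (adjusted p = 0.00628) and Gm4951 at 1.65 (adjusted p = 0.000107). Of the other interferon gamma response genes 4 of 8 were higher over both treatments and 6 in the aPD1 tumors, led by the chemokine Cxcl9 at 1.66 (adjusted p = 0.00199) and Cd274, which encodes PD-L1, at 1.38 (adjusted p = 0.0238). Among signalling genes 1 of 10 passed over both treatments, the transcription factor gene Irf8 (0.34), which passed in the aPD1 tumors as well (0.49). Inflammasome partners had 0 of 5 over both treatments (3 under 0.05 unadjusted) and 2 in the aPD1 tumors, Casp4 (0.79) and Gsdmd (0.36), the caspase and the pore protein of inflammatory cell death. Genes typical of type I interferon had 0 of 7 in either comparison by edgeR, with 1 and 3 under 0.05 unadjusted. Of all 11873 genes tested, 2368 over both treatments and 2489 in the aPD1 tumors were under 0.05 unadjusted. In isotype tumors 0 genes of these 5 lists passed by edgeR, and 1, from the other response genes, was under 0.05 unadjusted, beside 797 of all 11873 genes. The median log2 difference in the aPD1 tumors was 0.96 over the immunity-related GTPases, 0.95 over the other response genes, 0.23 over the signalling genes, 0.32 over the inflammasome partners and 0.26 over the type I interferon genes, against 0.001 over all genes tested. Against B6, where 24.8% of all genes differed in CC079 and no call on a member held with the pool as a block, CC079 was lower in 7 of 8 immunity-related GTPases, 8 of 10 signalling genes, 7 of 8 other response genes, 2 of 5 inflammasome partners and 1 of 7 type I interferon genes.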

How the data were processed

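A set of 48 tumors was profiled by droplet single-cell sequencing that reads the 5′ end of each transcript. The authors aligned the reads to GRCm38 with Cell Ranger, removed cells with high mitochondrial or ribosomal content, clustered the rest with Seurat 5.0.1 and deposited raw UMI counts per gene and cell with a table of tumor, treatment and cluster per cell. Cells and clusters were used as deposited, and no doublet caller was run here. A cluster was named where at least 3 markers and 50% of a marker list reached 100 CPM and its 10 leading genes did not hold more markers of another class, which left cluster 25 unnamed. How well reads of the CC alleles align to the B6 reference was not tested.

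Counts were summed over the cells of each tumor and cell class, for tumors with at least 20 such cells. The replicate was the tumor: those of 1 host and treatment came from different pools, and 1 animal identifier occurs on 2 of them. Sums were tested with edgeR 4.0.16 (R 4.3.3, TMM scaling, filter on low counts, quasi-likelihood test, Benjamini-Hochberg over all genes tested, threshold 0.05). The hosts and aPD1 effects were fitted over 8 hosts and 2 treatments, and the response classes, which come from the study and not from the sample labels, over 38 tumors of 6 strains. Log2 differences carry standard errors. Fold bounds at 0 counts use 3 counts and cover counting error only. Correlations used permutation in scipy 1.17.1.

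The genes named are the 9 members in every comparison, the 2 genes of each other list with the largest change among those that passed, and the 10 genes most like the summed family level, of which 1 is not reported here. The members and lists were chosen with earlier results of these data known, so counts over them are descriptions. Samples of 1 pool share a library and are paired by it: deviations from group means correlated at a median of 0.22 over 24 pairs (-0.18 to 0.52). Fits with the pool as a block were run beside each edgeR test on all macrophages or all T/NK cells, and not beside the correlations with Ifng. The scripts were tested on simulated data with known changes. Apart from these changes the simulated tumors differed only by noise, with no spread between strains and no tie within pools. The shares recovered can therefore be too high for the real tumors, above all for the response classes. In the macrophage fit of the response classes on 12013 genes, 90.3% of genes changed 2-fold were recovered. In that of aPD1 in responder strains on 12811 genes 74.2% of such genes were, but 22.7% of those changed 1.5-fold, and for the difference of the aPD1 effect between the classes the shares were 51.5% and 4.55%.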

Additional observations from a re-analysis of the deposited data

Results flagged for a closer look

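In 10 of 107 groups of 4 to 10 tumors, 1 tumor stood apart by Dixon's criterion, and chance gives about 1 in 20 groups. In the macrophages of responder isotype tumors Gbp2b was at 130.8 CPM and Gbp8 at 101.7 CPM in the CC002 tumor of pool 12, the highest of 10 in each. In those of non-responder isotype tumors Gbp2b was at 17.83 CPM in the CC080 tumor of pool 4, the highest of 9. In T/NK cells of CC001 isotype tumors, the highest of 4 were Gbp2b in pool 12 (1.293 CPM) and Gbp7 in pool 4 (89.03 CPM), and the lowest for Gbp9 was pool 2 (6.542 CPM). In T/NK cells of non-responder tumors the highest were CC079 tumors: Gbp2b in isotype pool 2 (6.077 CPM) and aPD1 pool 2 (6.843 CPM), Gbp6 in isotype pool 2 (188.4 CPM) and Gbp4 in aPD1 pool 1 (121.6 CPM). Over all their tumors the T/NK cells held 1 UMI of Gbp2b in CC001 and 5 in CC079.

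A few members moved in opposite directions with aPD1 in macrophages of 2 hosts, in every pool of each host, and the difference was not tested. Gbp3 was lower in both pools of CC007 (median log2 difference -0.21) and higher in all pools of CC001. Gbp6 was lower in both pools of CC007 (-0.49) and higher in all pools of CC001 and CC075. One of the CC007 pools rests on the tumor of 53 cells, with 46554 macrophage UMIs, and the fitted estimates in CC007 were above 0, at 0.14 for Gbp3 and 0.125 for Gbp6 (edgeR, adjusted p = 1 for both). Gbp9 was lower in all 3 pools of CC080 (-0.09) and higher in all pools of CC001.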

How the results depend on the processing

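Calls among hosts and for aPD1 used 48 tumors in macrophages and 47 in T/NK cells, those between classes in macrophages used 38, and 53 to 3082 cells per tumor limit the low members most, Gbp2b in T/NK cells above all. The 20 calls against B6 in macrophages became 0 with the pool as a block, which holds the pairing of tumors, and 11 to 23 with a tumor left out. That block gave 8 calls in place of 9 among hosts in macrophages and 9 in place of 8 between classes in aPD1 tumors, and it left the counts of 7 between classes over both treatments and of 5 among hosts in T/NK cells. Gbp3 in CC080 against B6 turned to 0.116 under it. The 7 calls between response classes became 0 with counts summed per strain, 2 in pools 1 to 5 alone, 0 in pools 8 to 12 alone, 3 without CC002, 3 without CC075 and 2 without CC079, and 4 to 8 with a tumor left out. The 8 calls in aPD1 tumors became 5 without the CC080 tumors of the shared animal identifier, 1 in pools 1 to 5, 0 in pools 8 to 12, 5 without CC002, 3 without CC075, 3 without CC079 and 3 without CC080, and 4 to 9 with a tumor left out. The 0 calls in isotype tumors became 1 without CC001, those in T/NK cells 1 with no filter, and those of aPD1 in responder strains 5 in cluster 2. Strain and pool subsets hold fewer tumors, and the cause of the other changes was not tested. With at least 100 T/NK cells per tumor the fit lost CC079 and CC007. Of the values for single members under the alternatives, 8171 kept direction and call, 273 lost the call, 48 gained it, 199 that were called in neither fit changed sign, and so did 1 called value. Most of these values come from fits with 1 tumor left out, which differ little from the main fit. The 8171 also include values called in neither fit, so they are no measure of stability under the other alternatives.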

Other observations

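Gbp10 is a further family gene, beside Gbp6 on chromosome 5 (GRCm38, minus strand, 105215699 to 105239533), and 70.6% of the 50-base windows of its transcript occur also in Gbp6. It was scarce, with 1055 UMIs in all cells, and T/NK cells had 10.5 CPM against 2.05 CPM in macrophages. The hosts differed more in Gbp10 than in Gbp6, as levels with no test. In macrophages the median was 6.52 CPM in CC002 (3.90 to 9.04, 6 tumors), 3.42 CPM in CC001 (1.52 to 11.0, 8 tumors) and 1.83 CPM in CC079 (1.52 to 3.95, 6 tumors). B6 tumors had 0 to 0.454 CPM and CC036 tumors 0 to 0.147 CPM, as counted below every tumor of those 3 hosts. The B6 isotype tumor of pool 7 had 1583062 macrophage UMIs and the CC036 isotype tumor of pool 8 had 999264. By the bound of 3 counts, a 0 at that depth does not exclude 1.52 CPM. In T/NK cells the medians of the same 3 hosts were 16.2, 19.7 and 29.4 CPM, and that of B6 was 2.44 CPM. Whether reads of Gbp6 or Gbp10 were assigned to the wrong copy was not tested.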
